A study of Mus musculus with 6 samples.

Results

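Nuclear genes of oxidative phosphorylation were examined in ileal crypts of C57BL/6 mice aged 3 months. The genes were chosen by name, as those beginning with Nduf, Uqcr, Sdha to Sdhd, Cox4 to Cox8 or Atp5, together with Cycs, Cyc1 and Atpif1. The rule found 52 of the 7120 genes in the deposited tables, 17 assigned to complex I, 3 to complex II, 9 to complex III, 8 to complex IV, 14 to complex V, and Cycs. Crypts of Tl1a-transgenic (Tl1a-tg) mice, with 3 libraries, were set against crypts of wild-type (WT) mice, with 3 libraries, all taken from the ileum by laser microdissection of methacarn-fixed paraffin sections. Tl1a encodes a tumour necrosis factor-like cytokine, and its gene Tnfsf15 had no reads in either genotype, so it gave no check of the labels. The labels do not describe the transgene's promoter or construct, nor whether separate mice gave the libraries within a genotype, so that the deposited p-values may measure a technical spread.

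The respiratory chain sits in the inner mitochondrial membrane. Complex I and complex II pass electrons from NADH and succinate to ubiquinone, complex III hands them to cytochrome c, and complex IV gives them to oxygen, while complexes I, III and IV pump protons that drive ATP synthase, also called complex V. Most subunits are encoded in the nucleus and imported, and in the crypt, stem cells depend on mitochondrial respiration alongside glycolytic neighbours such as Paneth cells. Subunits encoded by mitochondrial DNA were looked for by name, and none was among the 7120 genes.

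In the deposited expression values each gene has a single model-fitted mean for each genotype, scaled by the depth of each library, so that no library has a measured value of its own. Levels below are these fitted means at a common depth, in reads per library, and carry no SD. They are not divided by transcript length, so a gene is compared between genotypes and not with another gene. Relative depth, as the library factor, was 1.01, 1.10 and 0.781 in the Tl1a-tg libraries and 1.34, 0.591 and 1.46 in the WT libraries, in replicate order. Secretory crypt products were abundant in both genotypes, for example the goblet cell mucin Muc2 at 12550 reads in Tl1a-tg, against 13390 in WT, and the Paneth cell defensins Defa24, at 11780 in Tl1a-tg against 11900 in WT, and Defa17, at 8263 in Tl1a-tg against 6962 in WT. Of 17 crypt markers 14 were listed, and their fitted means summed to 40070 reads in Tl1a-tg, against 39980 in WT, a sum that rests mostly on such products. Of the 13 crypt markers with a p-value 0 passed the adjusted DESeq2 threshold and 4 had an unadjusted p below 0.05, all higher in Tl1a-tg, beside 14.6% of all genes with a p-value. These were Agr2, a goblet cell gene, at 186 reads in Tl1a-tg against none in WT, the stem cell receptor Lgr5 at 131 in Tl1a-tg against 0.342 in WT, the keratin Krt18 at 127 in Tl1a-tg against none in WT, and the intestinal transcription factor Cdx1 at 64.7 in Tl1a-tg against none in WT. Their part in the results below was not tested. The authors' deposited mean, by contrast, averages over every library of their model, which by these values held libraries beyond these 6, since genes without reads in both genotypes have a deposited mean above 0. That difference allowed whole read numbers of single libraries to be recovered for many genes. Errors and p-values of the authors may draw on the additional libraries too.

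The oxidative phosphorylation genes were thinly and unevenly read. In Tl1a-tg crypts 32 of the 52 genes had reads, and in WT crypts 22 had reads. Reads occurred only in Tl1a-tg for 21 genes (40.4%), only in WT for 11 genes (21.2%), in both genotypes for 11 genes (21.2%) and in neither for 9 genes (17.3%). Over all 7120 genes the shares were 31.4%, 16.4%, 34.4% and 17.9%. Of the 43 genes with reads, 30 had the higher fitted mean in Tl1a-tg and 13 in WT. The share higher in Tl1a-tg was 69.8%, beside 58.3% of all genes with reads. The fitted means of the 52 genes summed to 1499 reads in Tl1a-tg, against 986 in WT, a log2 ratio of 0.60, which is a description of these values without a test. In bulk crypts fewer cells of a type and less RNA per cell cannot be told apart.

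**Figure D1:**
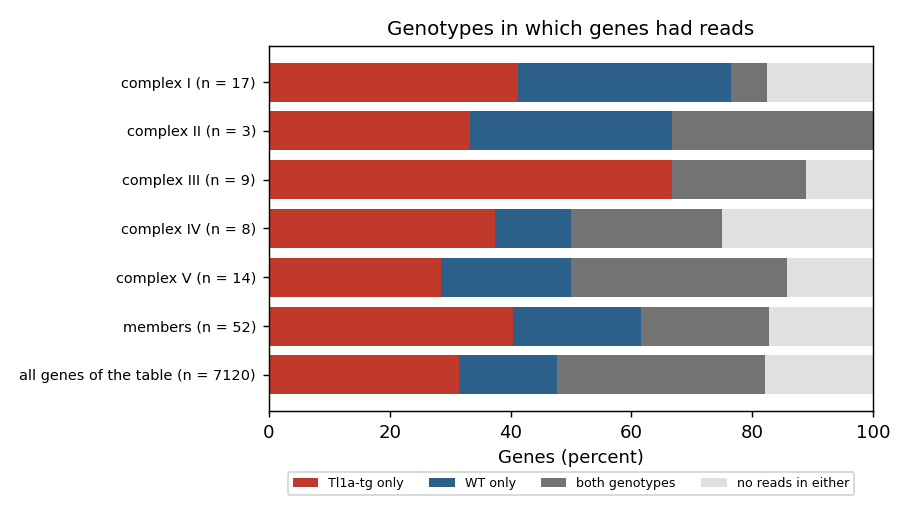
Share of genes, in percent, with reads in Tl1a-tg only, WT only, both genotypes or neither, for each respiratory complex, the 52 oxidative phosphorylation genes (members) and all 7120 genes. Complex III had no gene read only in WT, and complex I had 1 of 17 genes read in both genotypes, beside 16.4% and 34.4% of all genes.

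One gene passed the authors' test. An adjusted p below 0.05 was given to 1 of the 11 oxidative phosphorylation genes that have an adjusted p, beside 3.67% of all genes with one (2.47% higher and 1.2% lower in Tl1a-tg). That gene was Atpif1, which encodes the inhibitor that binds ATP synthase and limits ATP hydrolysis when the proton gradient is lost. Atpif1 had no reads in Tl1a-tg and a fitted mean of 117 reads in WT. For Atpif1 the authors' deposited table has a log2 fold change of -23.33 ± 4.41 (SE) and a 95% interval of -31.97 to -14.69 (adjusted p = 9.136e-06 by DESeq2). Its shrunken log2 fold change in the authors' deposited table was -0.17. The size rests on the value that the model assigned to Tl1a-tg, where no read was present. With it placed at the level of most other genes without reads, the log2 fold change was -9.24 and the adjusted Wald p was 0.248, so the call was lost.

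Promoter sequence is shown for Atpif1, the gene that passed, and for Uqcrc1 and Cox6a1, which were read in both genotypes and hold a motif of NRF1 (nuclear respiratory factor 1), a transcription factor known to bind promoters of respiratory chain genes. The sequences are RefSeq windows on GRCm38.p6, from 250 bases before to 50 bases after the annotated start, written 5′ to 3′ on the gene's strand. The Atpif1 window is chr4:132535365-132535664 on the minus strand, that of Uqcrc1 chr9:108936398-108936697 on the plus strand, and that of Cox6a1 chr5:115348909-115349208 on the minus strand. Capitals mark the motif GCGCATGCGC, which reads the same on both strands. Only these exact letters were searched, so a window without capitals was not checked for variants of the motif.
Atpif1: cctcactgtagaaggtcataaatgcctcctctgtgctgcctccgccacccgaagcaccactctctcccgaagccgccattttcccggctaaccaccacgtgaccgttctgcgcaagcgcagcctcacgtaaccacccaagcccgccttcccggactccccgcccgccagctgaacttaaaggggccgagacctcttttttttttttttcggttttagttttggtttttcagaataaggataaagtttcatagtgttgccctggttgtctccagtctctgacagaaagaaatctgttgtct
Uqcrc1: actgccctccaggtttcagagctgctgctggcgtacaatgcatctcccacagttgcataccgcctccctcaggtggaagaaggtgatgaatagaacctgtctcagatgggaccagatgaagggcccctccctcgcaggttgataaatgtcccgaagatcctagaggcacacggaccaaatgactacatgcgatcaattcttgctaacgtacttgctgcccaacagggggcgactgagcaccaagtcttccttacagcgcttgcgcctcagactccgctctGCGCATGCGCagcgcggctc
Cox6a1: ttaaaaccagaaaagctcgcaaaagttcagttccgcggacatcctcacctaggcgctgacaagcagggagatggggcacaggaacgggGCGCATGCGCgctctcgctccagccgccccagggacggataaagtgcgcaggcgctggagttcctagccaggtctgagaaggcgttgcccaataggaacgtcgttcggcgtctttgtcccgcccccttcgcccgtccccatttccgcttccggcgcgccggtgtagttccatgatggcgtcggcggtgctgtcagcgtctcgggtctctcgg
The letters occurred in the windows of 4 of the 42 oxidative phosphorylation genes with a window (9.52%), namely Ndufa11, Uqcrc1, Cox6a1 and Atp5g2, beside 2.27% of the windowed genes of the deposited tables and 1.07% of all windowed genes. The GABP motif CCGGAAG, searched on both strands, occurred in 11 of 42 (26.2%), beside 18.5% and 9.93%. The letters AAGATGG, the core of the YY1 motif, also searched on both strands, occurred in 8 of 42 (19.0%), namely Ndufa3, Ndufb8, Ndufs6, Ndufs7, Cox7c, Atp5f1, Atp5j and Atp5j2, beside 8.58% and 7.28%. In these 42 genes 0 matches of different motifs overlapped. Of the 4 genes with the NRF1 letters, Uqcrc1 and Cox6a1 had reads in both genotypes, and Ndufa11 and Atp5g2 had reads in neither. These matches describe the letters only.

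In complex I, subunits divided between the genotypes. Of its 17 genes, 7 were read only in Tl1a-tg (41.2%), 6 only in WT (35.3%), 1 in both (5.88%) and 3 in neither (17.65%). Over all 7120 genes these shares were 31.4%, 16.4%, 34.4% and 17.9%. Of the 17 genes 0 passed at an adjusted p below 0.05. The authors' deposited table gives none of them an adjusted p and only Ndufa12 an unadjusted p (0.144). Ndufs7, a core subunit on the path of electrons to ubiquinone, had 65.7 reads in Tl1a-tg, against none in WT. Ndufs3, another core subunit, had no reads in Tl1a-tg, against 51.2 in WT. The core subunits of the electron entry module, Ndufv1 and Ndufv2, had no reads in Tl1a-tg and 0.342 and 0.247 in WT, the level of 1 read. Subunits with no reads in Tl1a-tg also included the accessory proteins Ndufb9, with 62.2 reads in WT, Ndufb11, with 48.9, and Ndufa1, with 31.0. The WT reads of Ndufs3, Ndufb9, Ndufb11 and Ndufa1 were all recovered in WT replicate 1. Accessory subunits read only in Tl1a-tg were Ndufa2 with 26.6 reads, Ndufb8 with 23.8 and Ndufa12 with 15.3. Ndufa4, named for complex I and now assigned to complex IV, had 41.3 reads in Tl1a-tg, against none in WT. The assembly factor Ndufaf7, a methyltransferase, had 17.3 reads in Tl1a-tg, against none in WT. Ndufs6, an accessory subunit, was the gene read in both, at 15.4 in Tl1a-tg against 2.77 in WT. Ndufa3, Ndufa11 and Ndufb6 had reads in neither genotype. Core and accessory subunits thus occurred on both sides of the comparison. The Tl1a-tg levels given here for complex I were each recovered from 1 library. The complex I fitted means summed to 266 reads in Tl1a-tg, against 198 in WT, a log2 ratio of 0.42 that became 0.02 without Ndufs7.

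Complex II is the succinate dehydrogenase that also serves the citric acid cycle. Sdha, its flavoprotein, had 49.5 reads in Tl1a-tg, against 0.342 in WT, the level of 1 read. The authors' deposited table gives Sdha a log2 fold change of 7.18 ± 3.83 (SE) (p = 0.0611, adjusted p = 0.25 by DESeq2), which did not pass. Its membrane anchors lay on opposite sides, with Sdhd at 21.5 reads in Tl1a-tg, against none in WT, and Sdhc at none in Tl1a-tg against 48.2 in WT. The 3 genes summed to 71.2 reads in Tl1a-tg, against 48.7 in WT, a log2 ratio of 0.55 that turned to -1.16 without Sdha.

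In complex III every gene with reads had the higher fitted mean in Tl1a-tg, 8 of 8, beside 58.3% of all genes with reads. Of its 9 genes 6 were read only in Tl1a-tg, 2 in both genotypes and 1, Uqcrb, in neither. Over all genes these shares were 31.4%, 34.4% and 17.9%. Uqcrc1, a core protein, had 199 reads in Tl1a-tg, against 124 in WT. Uqcrc1 has a log2 fold change in the authors' deposited table of 0.69 ± 3.76 (SE) (p = 0.855), so its difference lay within the error. Cyc1, the cytochrome c1 that passes electrons to cytochrome c, had 43.1 reads in Tl1a-tg, against 1.86 in WT, with no deposited p-value. Uqcr11, a small subunit, had 80.9 reads in Tl1a-tg, against none in WT. Its deposited log2 fold change, from the authors' deposited table, was 8.85 ± 4.41 (SE) (p = 0.0447, adjusted p = 0.23 by DESeq2), which did not pass. Uqcr10, another small subunit, had 33.0 reads in Tl1a-tg, against none in WT, and the Rieske iron-sulphur protein Uqcrfs1 had 31.8 in Tl1a-tg against none in WT. Uqcrh had 22.7 reads in Tl1a-tg, the core protein Uqcrc2 had 5.15 and Uqcrq had 2.43, each with none in WT. The Tl1a-tg reads of Uqcrh, Uqcrc2 and Uqcrq all came from Tl1a-tg replicate 2. Those of Uqcr10 were all recovered in Tl1a-tg replicate 1 and those of Cyc1 in Tl1a-tg replicate 3. The complex III sum was 418 reads in Tl1a-tg, against 127 in WT, a log2 ratio of 1.72, and Uqcrc1 made up 97.6% of the WT sum.

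Complex IV, cytochrome c oxidase, had its gene with the most reads, Cox6a1, higher in WT by fitted mean and most others higher in Tl1a-tg. Cox6a1, the non-muscle isoform of a regulatory subunit, had 41.6 reads in Tl1a-tg, against 122 in WT. The authors' deposited table gives Cox6a1 a log2 fold change of -1.55 without a p-value. Cox6b1, which helps link the enzyme's dimer, had 48.7 reads in Tl1a-tg, against none in WT. Cox4i1, the common isoform of the largest nuclear subunit, had none in Tl1a-tg against 22.2 in WT. Cox7a2l, studied as a factor of supercomplexes of complexes III and IV, had 23.3 reads in Tl1a-tg, against 8.01 in WT. Cox8a had 13.9 reads in Tl1a-tg and the zinc-binding subunit Cox5b had 8.09, each with none in WT, while Cox7a2 and Cox7c had reads in neither. The complex IV sum was 136 reads in Tl1a-tg, against 153 in WT, a log2 ratio of -0.17 that turned to 1.61 without Cox6a1. With Ndufa4 counted here instead of in complex I, the sums were 177 reads in Tl1a-tg, against 153 in WT, and the log2 ratio turned to 0.21, while that of complex I was 0.18. Cycs, the electron carrier between complexes III and IV, had reads in neither genotype.

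The catalytic core of complex V was among the better measured parts of the chain. Atp5a1, the alpha subunit, had 234 reads in Tl1a-tg, against 201 in WT. Its deposited log2 fold change, from the authors' deposited table, was 0.22 ± 3.01 (SE) (p = 0.942). Atp5b, the catalytic beta subunit, had 102 reads in Tl1a-tg, against 32.2 in WT, with a log2 fold change of 1.66 ± 3.31 (SE) in the authors' deposited table (p = 0.616). Neither difference exceeded its error. Atp5d, the delta subunit of the central stalk, had 63.9 reads in Tl1a-tg, against 0.267 in WT (p = 0.0415, adjusted p = 0.23 by DESeq2, in the authors' deposited table), and did not pass. Around the core, Atp5o, which couples the head to the peripheral stalk, had 6.28 reads in Tl1a-tg, against 47.7 in WT (DESeq2 p = 0.492, from the authors' deposited table). The peripheral stalk subunit Atp5h had 23.3 reads in Tl1a-tg, against none in WT, and Atp5j, of the same stalk, had none in Tl1a-tg against 19.9 in WT. The membrane subunit Atp5j2 had 23.6 reads in Tl1a-tg, against none in WT. Atp5l, another membrane subunit, had 54.5 reads in Tl1a-tg, against none in WT, with p = 0.0585 in the authors' deposited table. Atp5s, coupling factor B, had none in Tl1a-tg against 40.5 in WT, and Atp5f1, of the peripheral stalk, had reads in neither. The complex V sum was 607 reads in Tl1a-tg, against 460 in WT, a log2 ratio of 0.40. This sum counts the inhibitor Atpif1, which adds only to the WT side, at 117 reads. The ratio is lower with Atpif1 than it would be over the other genes of complex V.

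The rotor ring of ATP synthase is built from subunit c, which Atp5g1, Atp5g2 and Atp5g3 encode as the same mature protein behind different import signals. Atp5g3 had 91.4 reads in Tl1a-tg, against none in WT. Atp5g3 has in the authors' deposited table a log2 fold change of 9.02 ± 4.34 (SE) (p = 0.0378, adjusted p = 0.23 by DESeq2), which did not pass. Atp5g1 had 7.82 reads in Tl1a-tg, against 0.342 in WT, and Atp5g2 had reads in neither. Related copies can exchange reads in counting, so these levels are uncertain gene by gene.

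**Figure D2:**
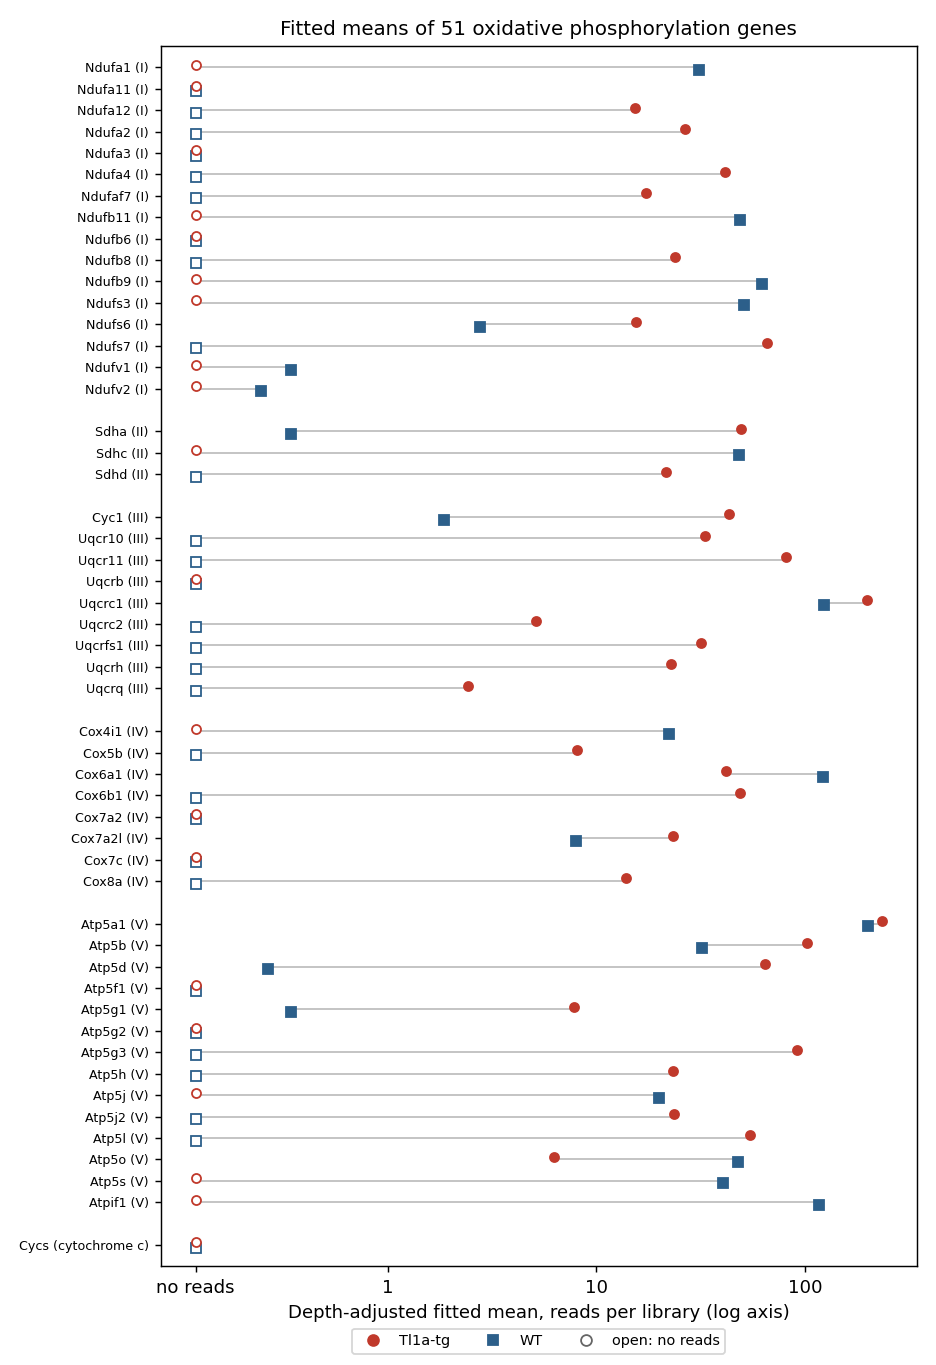
Depth-adjusted fitted mean of 51 of the 52 genes, in reads per library on a log axis, in Tl1a-tg (red circles) and WT (blue squares), grouped by complex (in brackets). Open symbols at the left mark a genotype without reads. Only Atp5a1, Atp5b, Cox6a1 and Uqcrc1 lie at or above 10 reads in both genotypes.

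Few of these differences could be tested. Of the 52 genes 14 have a p-value in the authors' deposited table. An unadjusted DESeq2 p below 0.05 was given to 4 of the 14, namely Atp5d, Atp5g3 and Uqcr11, higher in Tl1a-tg, and Atpif1, lower, beside 14.6% of all 2580 genes with a p-value (10.7% higher and 3.91% lower). At least 10 reads in both genotypes were reached by 4 genes, Atp5a1, Atp5b, Cox6a1 and Uqcrc1. The median deposited log2 fold change over these 4 was 0.45, with 3 positive and 1 negative, beside a median of -0.38 over all 1379 such genes. The smallest standard error among the 52 genes, 3.01 for Atp5a1, gives a 95% half-width of 5.90 on the log2 scale, or 59.8-fold, and differences below that were not detectable. For 43 of the 52 genes (82.7%) the dispersion behind the standard error lay at its ceiling of 13, beside 76.1% of all genes, and these errors do not estimate a measured spread.

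**Figure D3:**
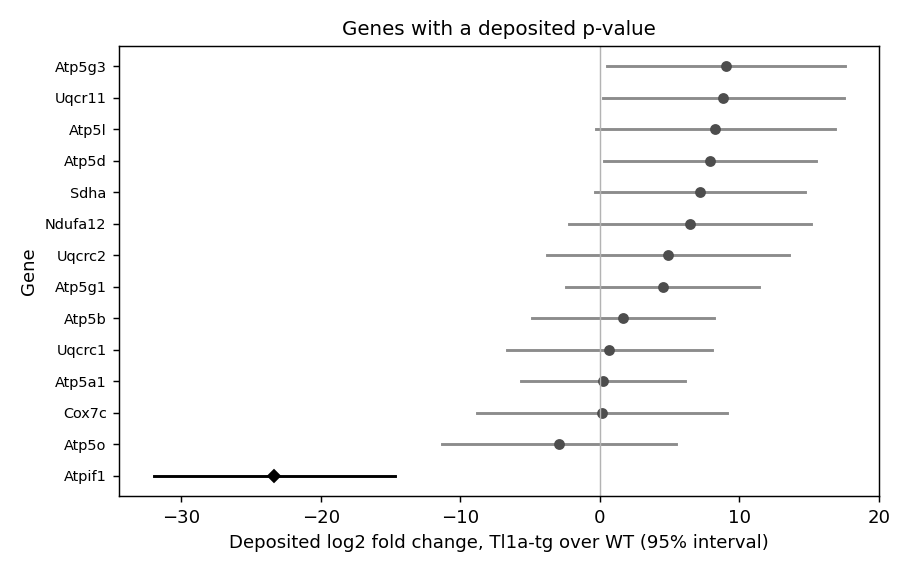
Log2 fold change (Tl1a-tg/WT) from the authors' deposited table, with its 95% interval, for the 14 genes with a p-value. The diamond and black line mark Atpif1, at -23.33 with an interval of -31.97 to -14.69. The intervals of Atp5g3, Uqcr11 and Atp5d lie above 0 but their adjusted p is 0.23, and those of the 10 other genes include 0.

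The recovered reads show how many libraries stood behind the fitted means. A genotype with reads for a gene was one case, which gave 54 cases among the oxidative phosphorylation genes, 32 in Tl1a-tg against 22 in WT. All reads of the genotype were recovered in 1 library in 34 of the 54 cases (63.0%), 19 exactly and 15 from the fit, beside 3866 of 8292 (46.6%) over all genes. In another 3 cases, the WT reads of Ndufv1, Sdha and Atp5g1, a single read lay in a WT library that was not resolved. The remaining 17 cases were not resolved and may hold reads of several libraries, which recovery from the fit cannot return. Where recovery was exact, 19 of 19 cases rested on 1 library, beside 1457 of 1634 (89.2%) over all genes. Exact recovery tried a single library first and accepted several only under narrower conditions, so these shares are partly set by the method. Each of the 19 exact levels is therefore the reading of 1 library, with the others of its genotype at 0 reads. The 15 from the fit are taken as such, and a few of them may be wrong. By counting error alone 0 reads allows up to 3 reads.

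In Tl1a-tg the single-library genes were spread over the 3 libraries. Replicate 1 held all Tl1a-tg reads of 7 genes, among them Ndufs7 (199 reads), Sdha (150), Cox6a1 (126), Ndufa4 (125), Uqcr10 (100) and Ndufb8 (72). Atp5o (19) completed that set. Replicate 2 held those of 11 genes, among them Cox6b1 (161 reads), Ndufa2 (88), Atp5j2 (78), Atp5h (77), Cox7a2l (77), Uqcrh (75) and Sdhd (71). The others were Ndufaf7 (57), Ndufs6 (51), Uqcrc2 (17) and Uqcrq (8). Replicate 3 held those of 4 genes, among them Cyc1 (101 reads), Ndufa12 (36) and Cox5b (19). These 7, 11 and 4 of 22 genes compare with 23.8%, 50.3% and 25.9% of all single-library genes of Tl1a-tg, and the 7 and 4 make 31.8% and 18.2%.

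In WT they came mostly from 1 library. WT replicate 1 held all WT reads of 9 genes, from 249 reads for Ndufb9 and 205 for Ndufs3 through Ndufb11 (196), Sdhc (193), Atp5o (191), Atp5s (162) and Ndufa1 (124) to Cox4i1 (89) and Cox7a2l (32). WT replicate 3 held those of 3 genes, Atp5j (87 reads), Ndufs6 (12) and Ndufv2 (1). WT replicate 2 held those of 0 genes. The shares of 75.0%, 0% and 25.0% for WT replicates 1 to 3 compare with 50.5%, 35.4% and 14.1% over all single-library genes of WT. WT replicate 2 had the lowest library factor of the 6 libraries. The 3 genes read in both genotypes and resolved on both sides each had 1 library a side. Cox7a2l had 77 reads in Tl1a-tg replicate 2 and 32 in WT replicate 1. Ndufs6 had 51 reads in Tl1a-tg replicate 2 and 12 in WT replicate 3. Atp5o had 19 reads in Tl1a-tg replicate 1 and 191 in WT replicate 1.

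**Figure D4:**
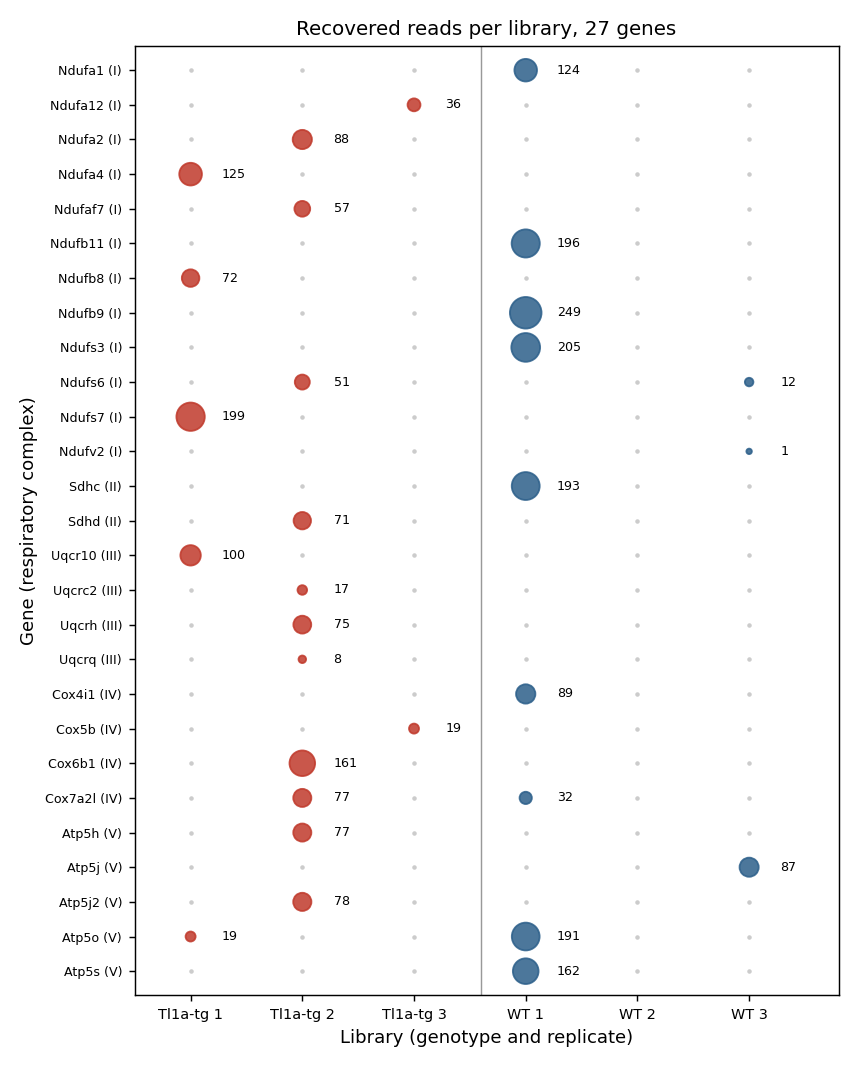
Recovered reads per library for 27 of the 28 genes resolved in both genotypes, with Tl1a-tg libraries in red and WT libraries in blue. Point area grows with the printed read number and small grey dots mark 0 reads. WT replicate 2 has no reads of any of these genes. Recovery from the fit assigns a genotype's reads to 1 library or leaves them unresolved, so genes with reads in several libraries can be missing here.

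Leaving out single libraries moved the balance between genotypes. The balance was 30 genes higher in Tl1a-tg and 13 higher in WT. It became 19 and 15 without Tl1a-tg replicate 2, and 31 and 5 without WT replicate 1. In these steps 11 and 9 genes lost all reads of the genotype, and 34 and 36 genes with reads were left. Without WT replicate 2, which held no single-library gene here, the numbers stayed at 30 and 13. Unresolved genes kept their fitted means. Leaving out a library thus mainly took genes from its own genotype, a direction set in advance. Of the 28 genes resolved in both genotypes 25 (89.3%) lack a p-value in the authors' deposited table, beside 2129 of 2588 (82.3%) over all genes. Of the 15 other genes with reads 10 have one. Among the 9 genes without reads in either genotype only Cox7c has one. A missing p-value was thus not particular to the 28 resolved genes. DESeq2 is known to withhold a p-value from a gene with an extreme count in 1 library, but the reason is not stated in the tables.

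Genes that serve the chain were read in the same uneven way. Among adenine nucleotide and phosphate carriers 6 of 8 were listed, 4 have an adjusted p and 1 passed, beside 3.67% of all genes with one. It was Slc25a3, the phosphate carrier that supplies ATP synthase, with no reads in Tl1a-tg, against 103 in WT. The authors' deposited table gives Slc25a3 a log2 fold change of -23.14 ± 4.41 (SE) (adjusted p = 1.014e-05 by DESeq2), and with the near-0 value at the level of other genes without reads this call was lost too (log2 fold change -9.06, adjusted Wald p = 0.248). Of the 5 with a p-value 4 fell below 0.05 before adjustment, Slc25a3, Vdac1, Vdac2 and Slc25a5, beside 14.6% of all genes with a p-value. The outer membrane channels Vdac1 and Vdac2 had 80.7 and 75.8 reads in Tl1a-tg, against none in WT (p = 0.031 and p = 0.0438 in the authors' deposited table, adjusted p = 0.23 by DESeq2 for both), and their relative, Vdac3, had reads in neither genotype. The ADP/ATP carrier Slc25a5 had 61.9 reads in Tl1a-tg, all 145 of them before depth adjustment from replicate 3, and 0.342 in WT, the level of 1 read (p = 0.0499, adjusted p = 0.232 by DESeq2, in the authors' deposited table).

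Factors that build the complexes, import proteins and translate mitochondrial messages gave 0 genes past the adjusted DESeq2 threshold and 0 with an unadjusted p below 0.05, beside 3.67% and 14.6% of all genes with such values, and 3 of these genes have an adjusted p. Of all 7120 genes 31.4% were read only in Tl1a-tg, 16.4% only in WT, 34.4% in both and 17.9% in neither. Of 47 assembly factors outside the name rule 16 were listed, 7 read only in Tl1a-tg, 2 only in WT, 4 in both and 3 in neither. They were led by Cox15, of haem a synthesis, with 23.8 reads in Tl1a-tg, against 64.2 in WT, and Higd2a, with 36.3 in Tl1a-tg against 52.4 in WT. The complex I assembly factor Tmem126b had no reads in Tl1a-tg, against 73.0 in WT, the WT reads all from WT replicate 3. Of 25 protein import genes 11 were listed, 6 read only in Tl1a-tg, 1 only in WT and 4 in both. The chaperonin pair Hspe1 and Hspd1 had 32.7 and 26.6 reads in Tl1a-tg and 62.5 and 35.0 in WT, and Timm13 had 51.8 in Tl1a-tg against 28.2 in WT. Of 78 mitochondrial ribosome genes 28 were listed, 14 read only in Tl1a-tg, 5 only in WT, 3 in both and 6 in neither. Mrps24 and Mrps28 had no reads in Tl1a-tg and 100.3 and 91.9 in WT, and Mrpl38 had 48.6 in Tl1a-tg against 29.3 in WT.

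Fuel pathways around the chain had 0 genes past the adjusted DESeq2 threshold, and Hadhb and Pgam1 had an unadjusted p below 0.05 (0.0315 and 0.027 in the authors' deposited table). An adjusted p was given to only 4 citric acid cycle, 4 glycolysis and 2 fatty acid oxidation genes, and a p-value to 8, 4 and 3. Of all genes with such values 3.67% passed and 14.6% had an unadjusted p below 0.05. Reads lay only in Tl1a-tg for 31.4% of all 7120 genes, only in WT for 16.4%, in both for 34.4% and in neither for 17.9%. In the citric acid cycle 14 of 19 genes were listed, 5 read only in Tl1a-tg, 1 only in WT, 5 in both and 3 in neither. Ogdh, of the 2-oxoglutarate dehydrogenase complex, had 234 reads in Tl1a-tg, against 131 in WT, and its partner Dlst had 91.7 in Tl1a-tg against none in WT. Of 22 glycolysis genes 12 were listed, 3 read only in Tl1a-tg, 2 only in WT, 6 in both and 1 in neither. Gapdh had 107 reads in Tl1a-tg, against 246 in WT, Gpi1 had 85.9 in Tl1a-tg against 109 in WT, Pkm had 75.8 in Tl1a-tg against 63.2 in WT, and Pgam1 had 69.7 in Tl1a-tg against 0.342 in WT. Of 16 mitochondrial fatty acid oxidation genes 8 were listed, 2 read only in Tl1a-tg, 2 only in WT, 1 in both and 3 in neither. Hadh had 39.6 reads in Tl1a-tg, against 142 in WT, Hadhb had none in Tl1a-tg against 138 in WT, and Etfdh had 32.4 in Tl1a-tg against none in WT.

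Regulators and protective genes gave 0 calls as well. Only 2 regulators and 3 antioxidant defence genes have an adjusted p, and 2 and 4 have a p-value. Of all genes with such values 3.67% passed and 14.6% had an unadjusted p below 0.05. Polrmt, the mitochondrial RNA polymerase, was the gene with an unadjusted DESeq2 p below 0.05 (0.0383 in the authors' deposited table). It had 98.5 reads in Tl1a-tg, against none in WT. Reads lay only in Tl1a-tg for 31.4% of all 7120 genes, only in WT for 16.4%, in both for 34.4% and in neither for 17.9%. Of 18 mitochondrial biogenesis regulators 11 were listed, 4 read only in Tl1a-tg, 3 only in WT, 2 in both and 2 in neither. The nuclear receptor Ppard had 106 reads in Tl1a-tg, against 163 in WT, the coactivator Ppargc1a had 30.7 in Tl1a-tg against 95.2 in WT, and Yy1 had none in Tl1a-tg against 109 in WT. The WT reads of Ppargc1a, 169 before depth adjustment, all came from WT replicate 2. Of 11 antioxidant defence genes 7 were listed, 2 read only in Tl1a-tg, 2 only in WT and 3 in both. The inner membrane carrier Ucp2 had 42.6 reads in Tl1a-tg, against 335 in WT, the glutaredoxin Glrx2 had 35.2 in Tl1a-tg against 324 in WT, and superoxide dismutase Sod1 had none in Tl1a-tg against 119 in WT. All 522 WT reads of Sod1 came from WT replicate 3. In the authors' deposited table p was 0.30 for Ucp2 and 0.369 for Glrx2, and neither passed.

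Markers of other cell types were low or unevenly read. Of 14 absorptive enterocyte markers 7 were listed, summing to 255 reads in Tl1a-tg, against 110 in WT. They were led by Vil1, at 138 in Tl1a-tg against 12.6 in WT, and Anpep, at 79.98 in Tl1a-tg against 45.02 in WT. Of 12 fibroblast and endothelial markers 4 were listed, summing to 200 reads in Tl1a-tg, against 54.6 in WT, with Fn1 at 133 in Tl1a-tg against 50.5 in WT, Col1a1 at 60.5 in Tl1a-tg against none in WT, and Vim at 7.08 in Tl1a-tg against 4.06 in WT. Of 16 immune markers 5 were listed, summing to 14.4 reads in Tl1a-tg, against 132 in WT, with Cd8b1 at none in Tl1a-tg against 128 in WT, Cx3cr1 at 10.97 in Tl1a-tg against 2.43 in WT, and Cd22 at 3.04 in Tl1a-tg against 0.939 in WT. Of 12 muscle markers 4 were listed, summing to 0.761 in Tl1a-tg against 0.527 in WT, with Acta1 at the level of 1 read in Tl1a-tg and Acta2, Myh6 and Myh7 without reads in either genotype. Of these 4 lists 0 genes passed the adjusted DESeq2 threshold and 0 had an unadjusted p below 0.05, beside 3.67% and 14.6% of all genes with such values. Few could be tested, since only 3 enterocyte, 2 fibroblast and endothelial, 1 immune and 1 muscle marker have an adjusted p. The part of these cells in the differences of the oxidative phosphorylation genes was not tested.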

How the data were processed

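RNA-seq libraries (Kapa stranded mRNA-seq kit, PicoPure RNA, per the labels' protocols) were processed by the authors with DESeq2, RSEM 1.2.15, Bowtie2 2.1.0, Trimmomatic and FastQC (order and role not given), per the submitters' processing notes. The genome build of the counting is not given in the sources used here, nor are read totals, so the depth is unknown.

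The deposited signal values, called normalized counts in the file, were checked: columns of the same genotype had a constant ratio over genes (relative range up to 1.77e-14). They are fitted means and hold no replicate spread, so the test rests on the authors' values. The authors' deposited tables give p-values and adjusted p-values, Wald scores, log2 fold changes and their standard errors, and apeglm shrunken log2 values. Missing values were kept missing.

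Fitted means were divided by library factors (geometric mean 1). Means within 1% of 0.184 before scaling, or below 0.01, were taken as no reads, and 0.358 as 1 read in 1 library. The authors' deposited mean is the mean of reads divided by the library factor, over all libraries of the model. Where it was accounted for by these 6 libraries, reads were whole within 1e-08 (exact recovery). Otherwise a library was accepted where the fitted mean, with the dispersion solved from the standard error, gave a whole number of reads up to 300. Of right libraries 98.9% passed this rule, and of wrong ones 3.10%, among genes recovered exactly, so a few of the assignments made in this way may be wrong. These rates come from genes read in 1 library and were not measured for genes read in several. The procedure was also run on simulated data, with a dispersion of 13 for every gene and libraries drawn independently. Most simulated genotypes with reads held them in 1 library, so genes read in several were little tested.

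The 52 genes, the 15 lists and the alternatives were chosen with earlier results of these data known. Named are genes with a p below 0.05, per complex the 5 with the highest mean and the 3 with the largest difference of log2(mean + 1) each way, near-identical copies, and per list the 3 with the highest mean and any that passed. The other genes were named to account for the genes of the complexes, a few genes that the rule names are not reported here, and Slc25a5, Vdac3, Pgam1, Polrmt, Myh7, Agr2, Lgr5, Krt18 and Cdx1 were chosen after their values were seen. Promoter windows came from RefSeq (GRCm38.p6). Of the 52 genes 50 matched by symbol and 2 by synonym, and 42 had a window. Python 3.11.15, numpy 2.4.6, pandas 2.3.3, scipy 1.17.1 and matplotlib 3.10.9 were used.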

Additional observations from a re-analysis of the deposited data

Results flagged for a closer look

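For 9 oxidative phosphorylation genes without reads in either genotype, the authors' deposited mean over all libraries of their model was above the 0.0107 that 0 reads in these 6 libraries allow, so reads were present in libraries outside the comparison. The deposited mean was 174 for Ndufb6, 5.799 for Atp5f1, 4.68 for Ndufa11, 3.02 for Cycs, 2.36 for Ndufa3, 1.77 for Atp5g2, 1.76 for Uqcrb, 1.61 for Cox7a2 and 1.06 for Cox7c. Genes without reads in either genotype made up 17.3% of the 52 genes, beside 17.9% of all 7120 genes, so such genes were not particular to this set. What the libraries outside the comparison are is not given in the sources used here.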

How the results depend on the processing

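The call of Atpif1 was lost, with 0 genes called, when near-0 fitted means were placed at the level of other genes without reads, and 0 called genes had a shrunken log2 fold change above 1 in size. It held at an adjusted p of 1.418e-05 when adjusted over every gene with a p-value, and with assembly factors left out. Of the genes with reads 30 of 43 were higher in Tl1a-tg, 22 of 33 at a mean of at least 10 and 3 of 5 at a mean of at least 50. Over all genes chosen in the same ways, 58.3%, 55.6% and 38.2% were higher in Tl1a-tg. With each library left out in turn, a choice made after seeing the data, the number of 30 ranged from 19 to 31. Unresolved genes were kept as they were in this step, so the direction of each shift was largely set by the genotype of the library left out. The median log2 fold change of 0.45 over genes with at least 10 reads in both genotypes became 6.94 over the 33 genes with a mean of at least 10, beside 0.68 over all genes chosen so. Of these 33 genes 4 reach 10 reads in both genotypes, and 6.94 is set by that filter and by the floor value of genotypes without reads. Over the 4 genes the median was 0.83 with the median of all genes set to 0. Scaling to the sum over all genes other than Rn45s, the ribosomal RNA precursor, shifted Tl1a-tg by 0.09 on the log2 scale and turned the direction of 0 complexes. Leaving out the gene with the most reads gave log2 ratios of the summed means of -1.16 for complex II, 6.15 for complex III, whose remaining WT sum rests on Cyc1 and on values fitted to genes without reads, and 1.61 for complex IV, while complex I fell to 0.02 and complex V was 0.53. With Ndufa4 counted in complex IV, also chosen after seeing the data, the log2 ratio was 0.21 for complex IV and 0.18 for complex I. No paired analysis was possible because the deposited columns hold 1 fitted mean per genotype. The planned refits without each replicate were not run for the same reason.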
